A study of Mus musculus with 6 samples.

Results

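Transcripts of 10 Sox genes were followed in MC-38, a mouse colon tumour cell line, in 6 RNA sequencing libraries. The genes were Sox4, Sox5, Sox6, Sox7, Sox9, Sox11, Sox12, Sox13, Sox17 and Sox18, found by their gene symbols among the 52636 genes of the deposited table. They are 10 of the 20 coding genes of the Sox family, Sry included, that the table holds. The 10 were chosen from the family with the difference between the groups in these same libraries known. Their own differences are therefore given as a description and carry no test.

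The genotype labels read M1E5 WT for 3 libraries and M1E5 Zfx F5 for the other 3, and the labels give no treatment for either group. All 6 share the MC-38 background and the M1E5 prefix, which the labels do not explain. Zfx, a zinc finger transcription factor gene on the X chromosome, was the target of Cas9 ribonucleoprotein complexes delivered by lipofection, and the series title speaks of clones, of which these libraries hold F5 alone. The labels give the RNA source in 2 ways, as cultured cells in the design text and as sorted tumour cells in the extract protocol, and no label speaks of separate cultures within a group, so the p-values measure a spread between libraries that may be technical.

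SOX proteins bind the minor groove of DNA through an HMG box like that of SRY and bend it, and they act with partner factors that differ between cell types. The SoxC group (Sox4, Sox11, Sox12) encodes activators of immature and migrating cells, and the SoxD group (Sox5, Sox6, Sox13) encodes proteins with no activation domain of their own that modulate other SOX factors. Sox9, of the SoxE group, drives cartilage and testis formation and marks the stem cell and Paneth cell zone of intestinal crypts, where Wnt signals maintain it, and the SoxF group (Sox7, Sox17, Sox18) is best known from blood and lymph vessels.

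The libraries held between 18876673 and 24241864 reads on genes, and 1 read was worth 0.0413 to 0.0530 CPM, the number of reads on a gene scaled to a common library size. Of the 52636 genes, 12279 averaged a log2 value of 0 or more and were tested. In limma, 8953 of them differed between the groups at an adjusted p under 0.05, which is 72.9%, with 4546 higher (37%) and 4407 lower (35.9%) in Zfx F5. The groups did not overlap for 4647 genes that were higher (37.8%) and 4477 that were lower (36.5%). Zfx itself measured 64.4, 69.7 and 68.9 CPM in WT and 125, 129 and 122 CPM in the libraries labelled Zfx F5, higher by 0.89 on the log2 scale (SE 0.042, limma adjusted p = 3.47e-18). Its level was higher, not lower, in the edited line, so it does not check the labels. The labelled tissue was checked against 14 colon epithelium markers, of which 1, Cdh1, was abundant enough to be tested, and Epcam, Krt19, Krt20, Muc2, Car1 and Cldn7 had 0 reads in all 6 libraries.

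Sox9, Sox4 and Sox12 supplied nearly all Sox transcript in both groups, and the first 2 of these were lower by a little over 2-fold in the libraries labelled Zfx F5, while Sox12 was close to its WT level. Sox7 was present in WT and nearly absent in the libraries labelled Zfx F5, Sox5 was low in WT and lower still there, and Sox6 and Sox13 were detected by a few reads. Sox11 and Sox17 had 0 reads and Sox18 had 2. Of the 10 genes, 5 were abundant enough to be tested (Sox4, Sox5, Sox7, Sox9, Sox12). All 5 were lower in the Zfx F5 libraries with no overlap between the groups, beside 36.5% of all tested genes, and they were chosen with this contrast known. In RNA from a population of cells, fewer expressing cells and less RNA per cell cannot be told apart.

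The promoters of Sox4, Sox12 and Sox5 are shown because these genes span the range seen here, from an abundant gene lower by over 2-fold through an abundant gene near its WT level to a scarce one. RefSeq sequences on GRCm38.p6 (mm10) cover 300 bases, from 250 before a transcript start to 50 after it, and hold 11 promoters for 6 of the 10 genes (Sox4, Sox5, Sox6, Sox11, Sox12 and Sox13). All of the following lie on the minus strand and are written 5′ to 3′ along the gene, and capitals mark a match to ACAAT, the core letters of many SOX binding sites.
Sox4 promoter, chr13:28953650-28953949: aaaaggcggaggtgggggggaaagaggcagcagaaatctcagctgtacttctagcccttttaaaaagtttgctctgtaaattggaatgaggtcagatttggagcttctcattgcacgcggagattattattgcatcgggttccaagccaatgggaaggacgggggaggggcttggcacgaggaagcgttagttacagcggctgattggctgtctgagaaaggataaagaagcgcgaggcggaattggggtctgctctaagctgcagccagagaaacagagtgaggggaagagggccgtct
Sox12 promoter, chr2:152397997-152398296: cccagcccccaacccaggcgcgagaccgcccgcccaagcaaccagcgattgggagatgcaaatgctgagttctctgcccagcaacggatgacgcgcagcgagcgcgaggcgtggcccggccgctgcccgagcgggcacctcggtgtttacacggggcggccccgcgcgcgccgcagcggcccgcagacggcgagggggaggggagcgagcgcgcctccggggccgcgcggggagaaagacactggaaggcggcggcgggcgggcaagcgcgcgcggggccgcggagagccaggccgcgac
Sox5 promoter, chr6:143947057-143947356: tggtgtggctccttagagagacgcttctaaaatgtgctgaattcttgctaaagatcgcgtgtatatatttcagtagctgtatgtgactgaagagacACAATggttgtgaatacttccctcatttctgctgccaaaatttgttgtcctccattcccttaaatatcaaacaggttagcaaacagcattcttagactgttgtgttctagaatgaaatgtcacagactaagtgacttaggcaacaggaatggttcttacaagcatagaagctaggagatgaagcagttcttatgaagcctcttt

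The 3 promoters differ in base composition. The Sox12 promoter was 76.7% G and C with 47 CpG dinucleotides, that of Sox4 was 52% with 12, and that of Sox5, which starts a transcript inside the gene, was 39.7% with 3. Over all 32851 RefSeq promoters of this length the median was 52.7% with 7 CpG dinucleotides. Searches covered both strands for 3 motifs: AGGCCT, the letters bound by ZFX and related zinc fingers, ACAAT, and CTTTGA, the core letters of TCF and LEF sites. AGGCCT was in 0 of the 11 promoters and in 10.3% of all promoters. ACAAT was in 4 of the 11 and in 31.0% of all, and CTTTGA was in 3 of the 11 and in 16.0% of all. Apart from the ACAAT match of Sox5, all of these lay in promoters of Sox6, which supplies most of the 11. The match of Sox5 lies at -154 from the transcript start, and the windows of Sox4 and Sox12 hold none of the 3 motifs. A match is a description of letters, and the lack of one says only that these letters are not in this window.

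Sox4, the first of the SoxC genes, lies at chr13:28948919-28953713 on the minus strand as a single exon gene of 4795 bases and encodes a widely expressed activator of progenitor and tumour cells. It measured 208, 212 and 205 CPM in WT and 98.9, 90.1 and 93.0 CPM in the libraries labelled Zfx F5, from 13827 and 5991 reads. The lowest WT library was above the highest of the other group by more than the range within either. The mean log2 value was 7.70 ± 0.02 (SD, n = 3) in WT and 6.55 ± 0.07 (SD, n = 3) in the libraries labelled Zfx F5, a difference of -1.15, and the pooled CPM were 2.21-fold lower there (95% interval 2.15 to 2.28, counting error only). By size of decrease Sox4 stood at place 570 of the 12279 tested genes, of which 735 (5.99%) were at least 2-fold lower.

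An antisense gene, Gm26735, lies on the plus strand over the end of Sox4 and shares 54.1% of the 50-base windows of Sox4 transcript sequence. The kit named in the labels, Nextera XT, does not mark strand, so reads of the shared stretch cannot be assigned by strand. Gm26735 was credited with 37 reads in WT and 26 in the libraries labelled Zfx F5, and the part of the shared stretch in the Sox4 values was not tested.

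Sox12 lies at chr2:152393611-152398063 on the minus strand, has 4453 bases and encodes the weakest activator of the SoxC group. It measured 128, 142 and 130 CPM in WT and 122, 117 and 121 CPM in the libraries labelled Zfx F5. The groups did not overlap, but the gap between them was smaller than the range within WT. The mean log2 value was 7.06 ± 0.08 (SD, n = 3) in WT and 6.91 ± 0.03 (SD, n = 3) in the other group, a difference of -0.15 that came to -0.05 after quantile normalization, where the groups overlapped. The pooled CPM were 1.11-fold lower (95% interval 1.07 to 1.14). Sox11, the SoxC gene of the developing nervous system, lies at chr12:27334264-27342574 and had 0 reads in all 6 libraries, where 3 reads would have been 0.124 to 0.159 CPM.

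Sox9 lies at chr11:112782224-112787760 on the plus strand, has 4135 bases and was the most abundant of the 10 genes per full gene length in every library. It measured 282, 293 and 275 CPM in WT and 131, 122 and 134 CPM in the libraries labelled Zfx F5, from 18776 and 8230 reads. All 3 WT libraries were above all 3 others, with no library standing apart in either group. The mean log2 value was 8.15 ± 0.05 (SD, n = 3) in WT and 7.01 ± 0.07 (SD, n = 3) in the other group, a difference of -1.14. The pooled CPM were 2.19-fold lower (95% interval 2.13 to 2.24), at place 585 by size of decrease, next to that of Sox4.

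**Figure D1:**
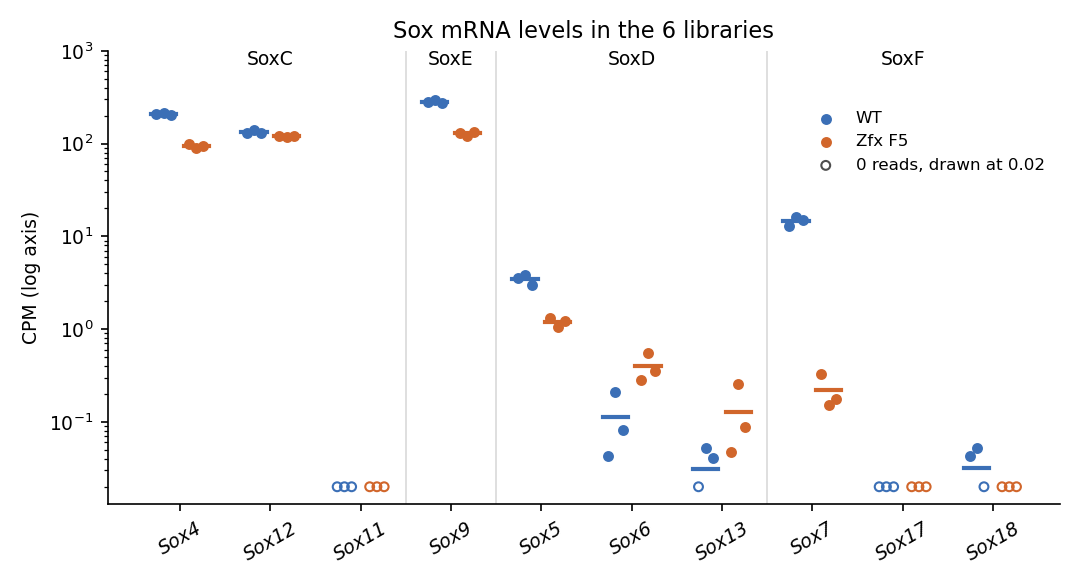
CPM of each of the 10 Sox genes on a log axis, ordered by group, with 1 filled point for each library, a bar for the mean of each set of 3, and open points at the bottom for libraries with 0 reads. Sox4, Sox12, Sox9, Sox5 and Sox7 have all WT points above all Zfx F5 points, and Sox6 has the opposite order from 1 to 11 reads per library.

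Sox5, of the SoxD group, lies at chr6:143828425-144781977 on the minus strand, and its protein helps SOX9 in cartilage. It measured 3.55, 3.87 and 2.97 CPM in WT and 1.32, 1.06 and 1.23 CPM in the libraries labelled Zfx F5. The groups were well apart although each value rested on 83, 73 and 72 reads in WT and 28, 21 and 28 in the others. The mean log2 value was 1.80 ± 0.19 (SD, n = 3) in WT and 0.31 ± 0.16 (SD, n = 3) in the other group, a difference of -1.49, and the pooled CPM were 2.84-fold lower (95% interval 2.18 to 3.72).

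The other SoxD genes were too scarce to be tested and lay in the opposite direction. Sox6, at chr7:115470872-116038796, encodes the partner of SOX5 in cartilage and a regulator of muscle fibre and red cell genes. It had 1, 4 and 2 reads in WT and 6, 11 and 8 in the libraries labelled Zfx F5, with no overlap, and its pooled CPM were 3.73-fold higher in the latter (95% interval 1.57 to 10.2). Sox13, at chr1:133382303-133424377, acts in gamma delta T cells and had 0, 1 and 1 reads in WT and 1, 5 and 2 in the others. These overlapped, and the interval of its 4.17-fold higher pooled CPM ran from 0.833 to 40.4.

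Sox7 showed the widest difference of the 10 genes. It lies at chr14:63943673-63950732 on the plus strand, has 3299 bases and encodes a SoxF factor of early blood and vessel cells and of primitive endoderm. It measured 12.8, 16.3 and 15.0 CPM in WT and 0.330, 0.152 and 0.176 CPM in the libraries labelled Zfx F5. These values came from 299, 307 and 364 reads in WT and from 7, 3 and 4 reads in the others, so every library had reads and the groups lay far apart. The mean log2 value was 3.87 ± 0.18 (SD, n = 3) in WT and -2.04 ± 0.51 (SD, n = 3) in the other group, a difference of -5.91 that was -3.68 with 1 CPM added before the log. The pooled CPM were 66.4-fold lower (95% interval 39.4 to 122), at place 13 by size of decrease among all tested genes. Sox7 passed the filter on low values only through the WT libraries, so it had to differ to be included.

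The other SoxF genes were at or near 0. Sox17, a factor of definitive endoderm and arteries, lies at chr1:4490931-4497354 and had 0 reads in all 6 libraries. Sox18, a factor of lymph vessels, lies at chr2:181669836-181671640 and had 1, 1 and 0 reads in WT and 0 reads in each of the others, which is under the floor of 3 reads per group.

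Per kilobase of transcript the order of the genes in WT was Sox9 (68.5 ± 2.18 CPM per kilobase, SD, n = 3), Sox4 (43.4 ± 0.722), Sox12 (29.9 ± 1.62), Sox7 (4.45 ± 0.532) and Sox5 (0.466 ± 0.0613). No neighbours in that order overlapped, while Sox6, Sox13 and Sox18 below them did not differ beyond their spread. The order in the other group was Sox9 (31.2 ± 1.51), Sox12 (26.9 ± 0.622), Sox4 (19.6 ± 0.938) and Sox5 (0.162 ± 0.0177), followed by Sox7, Sox6 and Sox13, which overlapped. By full gene length Sox4 and Sox12 thus exchanged places, and Sox7 went from above Sox5 to below it. The full length of Sox4 was used although 54.1% of its 50-base windows are shared with Gm26735. The part of this stretch in the places and ratios of Sox4, and in the sums and shares below, was not tested. The ratio of Sox4 to Sox12 per kilobase was 1.39 to 1.5 in WT and 0.712 to 0.754 in the other group, and the ratio of Sox9 to Sox12 was 2.23 to 2.36 and 1.12 to 1.19. The ratio of Sox9 to Sox4 was 1.56 to 1.60 in WT and 1.54 to 1.67 in the libraries labelled Zfx F5, so the groups overlapped in this ratio alone.

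Summed over the 10 genes, Sox transcript was 145, 152 and 143 CPM per kilobase in WT and 80.0, 74.8 and 79.3 in the libraries labelled Zfx F5, or 1.88-fold lower in the mean. The SoxC group held 49.9% to 50.2% of this sum in WT and 58.8% to 60.2% in the others, and Sox9 held 46.4% to 47.1% and 39.4% to 40.8%. Of the same sum over all 10 genes, Sox12 held 19.9% to 20.9% in WT and 34.2% to 35.1% in the others, and Sox4 held 29.0% to 30.0% and 24.5% to 25.8%. The SoxF share, nearly all Sox7, was 2.70% to 3.26% in WT and 0.0615% to 0.125% in the others. SoxD made up 0.293% to 0.366% and 0.276% to 0.361%, so its share overlapped between the groups although Sox5 was lower.

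**Figure D2:**
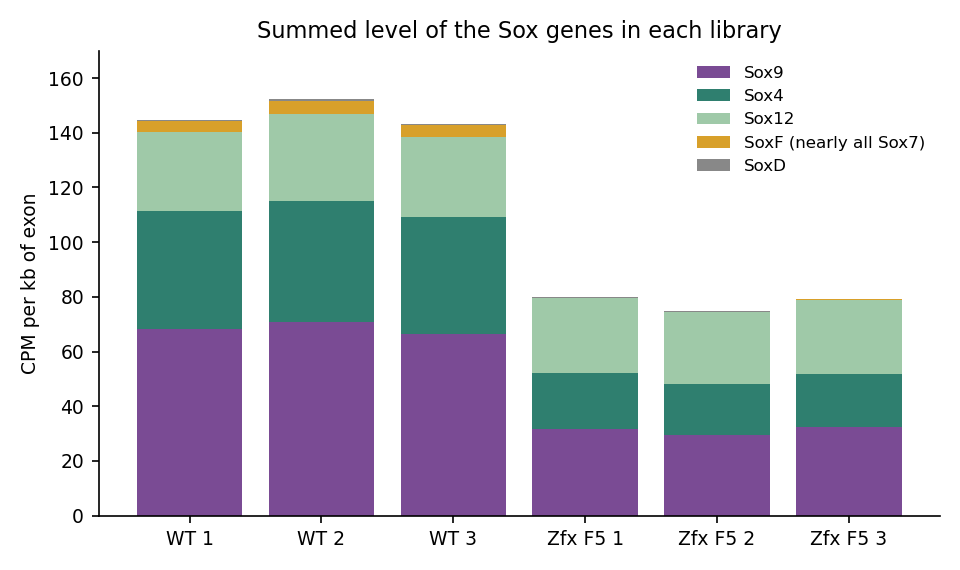
Summed level of the 10 Sox genes in each of the 6 libraries, in CPM per kilobase of exon, stacked as Sox9, Sox4, Sox12, SoxF and SoxD (Sox11 had 0 reads). The sum lies at 143 to 152 in WT and at 74.8 to 80.0 in the libraries labelled Zfx F5, and the Sox12 segment is nearly as tall in the second group as in the first.

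**Figure D3:**
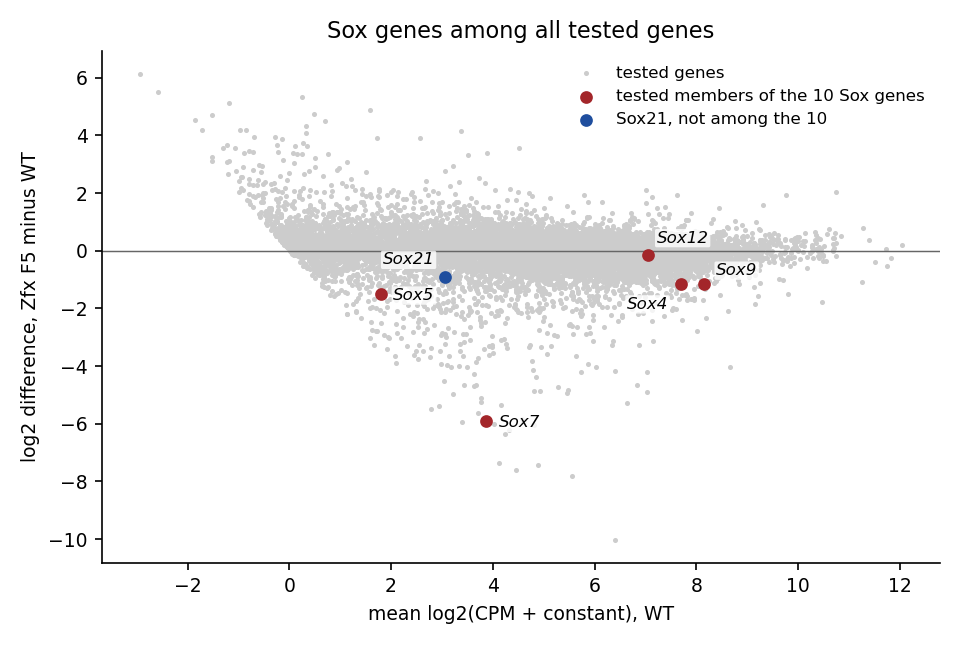
Log2 difference (libraries labelled Zfx F5 minus WT) against the mean log2 value in WT for all 12279 tested genes in grey, with the tested Sox genes in red and Sox21 in blue. Sox4 and Sox9 lie together at -1.15 and -1.14, Sox12 near 0, and Sox7 at -5.91 below nearly all other genes.

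Of the other 10 coding genes of the family, 1 was abundant enough to be tested. Sox21, a SoxB repressor of neural and epithelial progenitors, measured 8.003, 8.11 and 8.87 CPM in WT and 5.19, 3.39 and 4.92 CPM in the libraries labelled Zfx F5. The groups did not overlap. Sox21 fell by 0.90 on the log2 scale (SE 0.135, limma adjusted p = 1.09e-06), or 1.84-fold in pooled CPM, and 17.8% of its 50-base windows are shared with Gm4675. Sox2, Sox8, Sox10, Sox15 and Sox30 had between 0 and 4 reads over the libraries of a group, and Sox1, Sox3, Sox14 and Sry had 0 in all 6. The 8 noncoding genes with Sox in their names had at most 1 read each.

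For each tested Sox gene the gene with the most similar profile was taken by Euclidean distance over the 6 log2 values. It was Zswim8 for Sox4 (distance 0.135), Ankrd13b for Sox12 (0.0747), Adam8 for Sox9 (0.231), Gm17484 for Sox5 (0.474) and Tmem117 for Sox7 (1.17). Tmem117 measured 18.4, 18.1 and 20.1 CPM in WT and 0.236, 0.101 and 0.308 CPM in the libraries labelled Zfx F5. It too was nearly absent from the latter, a likeness that follows from its choice on these same values. Like Sox7, Tmem117 passed the filter on low values only through the WT libraries.

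The nearest tested genes on each side within 500000 bases were examined to see whether neighbours of the Sox genes moved with them. Of 13 such neighbours 9 passed the test (69.2%, beside 72.9% of all tested genes), 6 of them higher and 3 lower. Pinx1, a telomerase inhibitor gene 23814 bases from Sox7, measured 21.2, 20.4 and 21.5 CPM in WT and 19.3, 22.0 and 19.9 CPM in the libraries labelled Zfx F5. The groups overlapped there, at -0.04 on the log2 scale (SE 0.0696, limma adjusted p = 0.575), beside -5.91 for Sox7. On the other side of Sox7, Msra, which repairs oxidised methionine, rose by 0.78 (limma adjusted p = 7.2e-09). Cdkal1, a tRNA modifying enzyme gene 238033 bases from Sox4, rose by 0.54 (limma adjusted p = 4.24e-08).

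The neighbours of the remaining genes moved in either direction. Near Sox9, 2610035D17Rik did not pass, at 0.10 (limma adjusted p = 0.597). Bcat1, a branched chain aminotransferase gene near Sox5, rose by 0.13 (limma adjusted p = 0.000411). The gene 601 bases from Sox6, 1110004F10Rik, fell by 0.65 (limma adjusted p = 1.11e-13), whereas Sox6 itself had more reads in the libraries labelled Zfx F5. Near Sox12, H13 fell by 0.32 and Gm14165 did not pass (limma adjusted p = 0.403). Near Sox13, Ppp1r15b fell by 0.13 (limma adjusted p = 0.000754) and Snrpe rose by 0.26 (limma adjusted p = 0.00506), a call lost without trend and robust moderation (adjusted p = 0.0584, range over all alternatives 1.89e-05 to 0.0584). Near Sox17 and Sox18, Gm7357 rose by 0.83 (limma adjusted p = 0.000757) and Prpf6 by 0.19, and Tcea2 did not pass (limma adjusted p = 0.366).

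**Figure D4:**
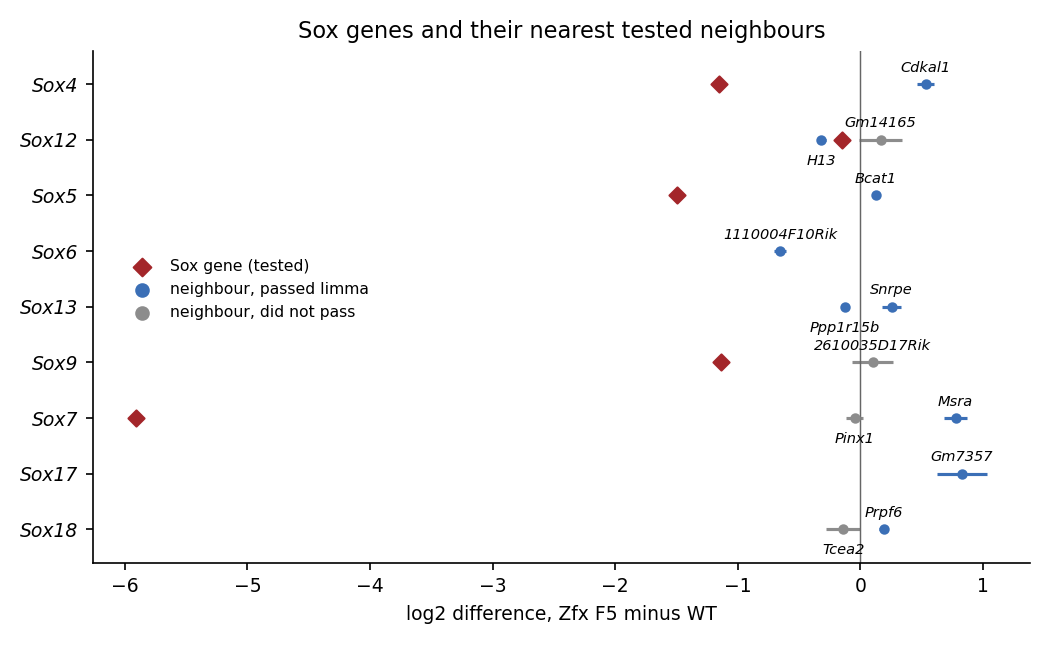
Log2 difference (libraries labelled Zfx F5 minus WT) on the horizontal axis, with 1 row per Sox gene. Diamonds are the tested Sox genes, and circles are the nearest tested neighbours with their SE, grey where limma did not pass. Pinx1 at -0.04 and Msra at 0.78 lie far from Sox7 at -5.91, and Cdkal1 at 0.54 lies opposite Sox4 at -1.15.

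Of the TCF and LEF genes, whose HMG boxes are related to those of SOX proteins and bind the same groove, 0 of 4 rose and 2 fell. The share that passed was thus 50%, beside 72.9% of all tested genes, of which 35.9% were lower. Lef1 measured 27.9, 27.1 and 26.3 CPM in WT and 6.32, 7.24 and 6.90 CPM in the libraries labelled Zfx F5, and Tcf7l1 26.2, 28.0 and 27.6 CPM and 14.1, 15.7 and 16.0 CPM. Neither pair of groups overlapped. Lef1 fell by 1.98 on the log2 scale (SE 0.0818, limma adjusted p = 1.18e-19) and Tcf7l1 by 0.84 (SE 0.0706, limma adjusted p = 4.83e-12). Tcf7 and Tcf7l2 did not pass, at 0.03 (limma adjusted p = 0.583) and 0.05 (limma adjusted p = 0.498).

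Of 20 other HMG box genes 16 were tested, with 5 higher, 6 lower and 5 not passing (68.75% passing, beside 72.9%), and their median log2 difference was 0.01 beside 0.02 for all tested genes. Smarce1, a subunit of the BAF chromatin remodelling complex, fell by 0.71 (limma adjusted p = 2.23e-13), and Hmg20b, tied to a histone demethylase complex, rose by 0.51 (limma adjusted p = 2.43e-06). Hmgb2, a chromatin architectural protein, rose by 0.38 (limma adjusted p = 0.007).

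Of 23 genes of proteins known to bind or cooperate with SOX factors 18 were tested, with 6 higher, 8 lower and 4 not passing, and the median was -0.07. The share that passed was 77.8%, near the 72.9% of all tested genes. Pax6, which pairs with SOX2 in the lens, measured 21.5, 20.02 and 23.3 CPM in WT and 6.23, 5.31 and 6.42 CPM in the libraries labelled Zfx F5. It fell by 1.85 (SE 0.0931, limma adjusted p = 1.98e-17). Pou3f3, a POU factor of neural progenitors, rose by 0.88 (SE 0.129, limma adjusted p = 4.45e-07). Smad3, a transducer of TGF-beta signals, fell by 0.50 (limma adjusted p = 7.02e-12), and Sdcbp, whose product syntenin binds SOX4 and stabilises it, rose by 0.32 (limma adjusted p = 1.39e-08).

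Genes regarded as targets of the SOX groups held members in both directions, as did all tested genes (37% higher and 35.9% lower). Of 10 SoxC targets 7 were tested, with 3 higher, 4 lower and 0 not passing, and a median of -0.30 beside 0.02 for all tested genes. Nes, the progenitor intermediate filament nestin, measured 13.1, 14.7 and 13.5 CPM in WT and 4.2, 5.06 and 4.31 CPM in the libraries labelled Zfx F5 and fell by 1.60 (SE 0.106, limma adjusted p = 1.45e-14). Mex3a, an RNA-binding protein of intestinal progenitors, fell by 0.47 (limma adjusted p = 1.96e-12). Tubb3, a neuronal tubulin, and Sema3c, a guidance ligand, rose by 0.59 (limma adjusted p = 2.33e-11) and 0.66 (limma adjusted p = 1.28e-15).

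Of 19 cartilage genes driven by SOX9 with SOX5 and SOX6, 3 were tested, and 1 rose, 1 fell and 1 did not pass. The share that passed was 66.7%, beside 72.9% of all tested genes. Papss2, which makes the sulfate donor for cartilage proteoglycans, measured 11.3, 10.8 and 12.0 CPM in WT and 110, 117 and 111 CPM in the libraries labelled Zfx F5. It rose by 3.31 (SE 0.0565, limma adjusted p = 1.68e-29), while Sox9 was 2.19-fold lower. Col27a1, a fibrillar collagen gene, fell by 1.25 (SE 0.112, limma adjusted p = 1.17e-10), and Wwp2, a ubiquitin ligase gene that hosts a cartilage microRNA, did not pass, at 0.09 (limma adjusted p = 0.0576). It passed after median centring, after quantile normalization and without WT replicate 1, where 2 of the 3 genes were higher. Col2a1 and Acan, the main cartilage matrix genes, had 4 and 2 reads in WT and 1 and 5 in the other group.

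Of 16 vessel genes known as SoxF targets 4 were tested, with 2 higher and 2 lower and a median of -0.05, beside 37% higher and 35.9% lower among all tested genes. Efnb2, an arterial ephrin ligand, measured 214, 221 and 218 CPM in WT and 99.0, 103 and 100 CPM in the libraries labelled Zfx F5 and fell by 1.11 (SE 0.0358, limma adjusted p = 2.08e-22). Notch1, an arterial receptor, fell by 0.85 (limma adjusted p = 3.28e-11). Nrp1, a semaphorin and VEGF receptor, rose by 0.96 (limma adjusted p = 8.19e-14), and Vcam1, an adhesion molecule, rose by 0.76 (limma adjusted p = 2.42e-18).

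Markers of endothelium are given beside Sox7. Among all tested genes 37% were higher and 35.9% lower. Of the 11 listed markers 2 were tested and both rose in the libraries labelled Zfx F5, Pecam1 by 1.57 (SE 0.084, limma adjusted p = 9.1e-17) and Egfl7 by 1.15 (limma adjusted p = 3.72e-10), and the summed level of the list was 13.01 to 13.9 CPM in WT and 33.9 to 39.2 CPM in the others, nearly all of it Pecam1 and Egfl7. The defining markers Kdr, Emcn and Cldn5 had 0 reads in all 6 libraries, and Cdh5 had 10 reads in WT and 31 in the others, while Vwf had 8 and 4 and Esam 3 and 3. The part of these markers in the Sox7 and vessel gene values was not tested.

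The other marker lists moved as follows, beside 72.9% of all tested genes that passed, with 37% higher and 35.9% lower. The colon epithelium markers summed to 1.38 to 2.06 CPM in WT and 4.2 to 4.70 CPM in the libraries labelled Zfx F5. Cdh1 rose by 1.33 (limma adjusted p = 2.83e-05), from a mean of 0.848 CPM to 2.10 CPM. Krt8, too scarce to be tested, had 0 reads in WT and 39, 34 and 41 in the libraries labelled Zfx F5. Its mean there was 1.79 CPM. Of 10 fibroblast markers 5 were tested, 3 higher and 2 lower, with sums of 1252 to 1285 CPM and 3424 to 3552 CPM that were mostly Col3a1. Col3a1, a fibrillar collagen gene, measured 874, 895 and 852 CPM in WT and 3388, 3257 and 3358 CPM in the libraries labelled Zfx F5 and rose by 1.93 (limma adjusted p = 1.05e-31), and Pi16 rose by 2.89 (limma adjusted p = 1.11e-12). Dcn, a matrix proteoglycan gene, and Pdgfra, a growth factor receptor gene, went the other way and fell by 1.82 (limma adjusted p = 1.3e-25) and 1.65 (limma adjusted p = 2.25e-26). Of 10 rows of myeloid genes 3 were tested and 1 rose, with sums of 11.1 to 13.6 CPM and 25.6 to 27.8 CPM. The gene that rose was Lyz2, which encodes a lysozyme, at 0.214, 0.477 and 0.619 CPM in WT and 14.4, 16.2 and 15.4 CPM in the libraries labelled Zfx F5 (log2 change 5.13, limma adjusted p = 1.26e-08). Cd14 and Cd68 did not pass (limma adjusted p = 0.211 and 0.12). The other myeloid genes were at or near 0. Adgre1 and C1qa had 0 reads in all 6 libraries, and Itgam had at most 1 read in any library. Ptprc had 1 read in WT and 1 in the libraries labelled Zfx F5, Csf1r had 5 and 3, and C1qb had 2 and 0. Cdh1, Pi16 and Lyz2 passed the filter on low values only through the libraries labelled Zfx F5, so they had to differ to be included. Of 8 lymphocyte genes 0 were tested, with sums up to 0.124 CPM in WT and up to 0.236 CPM in the others, and of 7 neural crest and glia genes 2 were tested and Mitf rose by 1.07 (limma adjusted p = 3.56e-08). The part of the cells these lists mark in the Sox values was not tested.

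Wnt target genes were set beside Sox9, which Wnt signals maintain in the crypt, and their decrease in these libraries was already known when the list was drawn up. Of 17 such genes 10 were tested, with 0 higher, 8 lower and 2 not passing. Their median was -0.57, and among all tested genes 37% were higher and 35.9% lower. Lef1 and Tcf7 are also among the TCF and LEF genes above, so the decrease of Lef1 counts in both lists. Axin2, a feedback inhibitor of the pathway, measured 3.04, 3.28 and 2.81 CPM in WT and 0.661, 0.557 and 1.19 CPM in the libraries labelled Zfx F5 and fell by 1.95 (SE 0.245, limma adjusted p = 2.69e-08). Apcdd1, a Wnt inhibitor at the cell surface, fell by 2.07 (limma adjusted p = 6.73e-14), and Ephb2, a crypt receptor, by 1.58 (limma adjusted p = 4.33e-22). Axin2 passed the filter on low values only through the WT libraries, so it had to differ to be included. Lgr5 and Ascl2, markers of crypt stem cells, had at most 3 reads in any library.

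**Figure D5:**
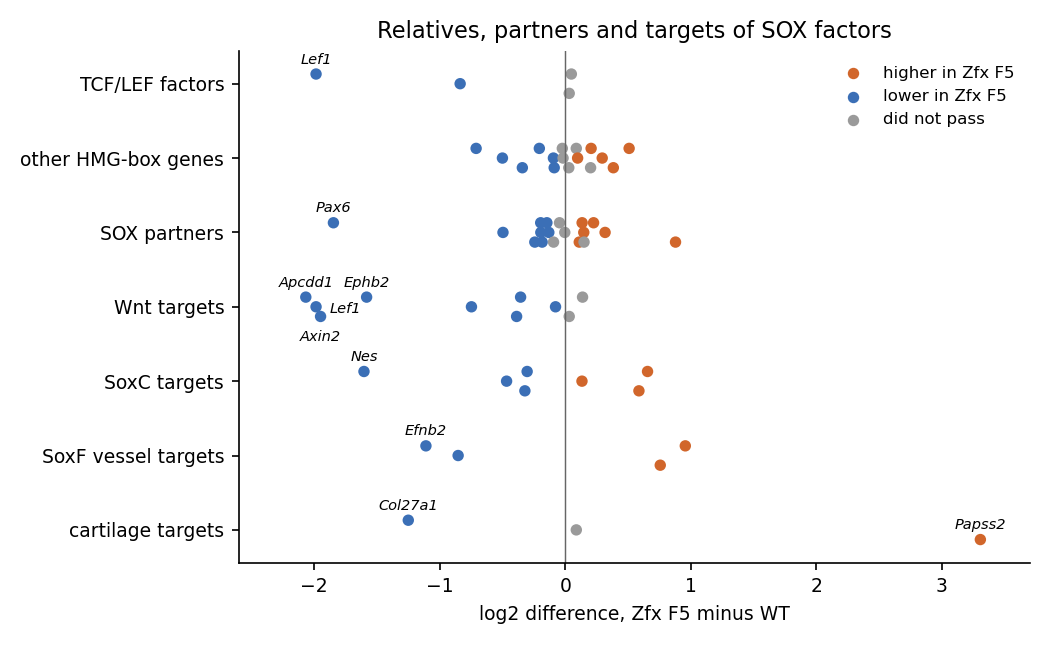
Log2 difference (libraries labelled Zfx F5 minus WT) on the horizontal axis, with 1 point per tested gene and 1 row per list, blue where it fell, orange where it rose and grey where limma did not pass. Wnt targets have no orange point, while SoxC targets, SoxF vessel targets and SOX partners have points on both sides, and Papss2 stands alone at 3.31.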

How the data were processed

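The labels describe short single-end reads from Nextera XT libraries. The authors deposited 1 table of log2 values, and the submitters' processing notes name the builds mm10 and GRCh38. Reads were assigned to genes with tools not given in the sources used here. Each value equalled log2 of CPM plus a constant of 0.0353, and all values up to 300 reads returned whole reads within 0.05 read. The table held 0 columns of other samples.

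Genes with a mean log2 value of at least 0 were compared with limma 3.58.1 in R 4.3.3 (trend and robust moderation, Benjamini-Hochberg adjustment over all tested genes, threshold 0.05). This step was tested on simulated data with a fixed spread in which few genes differed. That test does not cover data like these, where most genes differ. Alternatives were other filters, 1 CPM added, median centring, quantile normalization, no trend or robust moderation, voom weights on the recovered reads, and leaving out each library. Intervals cover counting error only, at 95%.

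Coordinates came from GENCODE M21 (mm10), matched by gene ID for 52489 of 52636 genes. Per-kilobase levels used the gene lengths in the table. The members and the gene lists were chosen with earlier results of these data known, and the ACAAT and CTTTGA motifs and the 50-base window check after values were seen. Named were the members, other Sox genes with reads, Zfx, up to 4 genes per list past the threshold with the largest log2 differences, nearest neighbours and most similar profiles. Tcf7, Tcf7l2, Wwp2, Cd14, Cd68 and genes too scarce to be tested were named after their values were seen.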

Additional observations from a re-analysis of the deposited data

How the results depend on the processing

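No paired analysis was possible because replicate numbers were given in accession order and name libraries only. Across the alternatives 8078 to 9353 genes passed the test, and 8542 to 8748 when 1 library was left out. Of 604 repeats for 47 named genes outside the 10 Sox genes, 603 kept their side of the threshold. Among these genes Snrpe alone lost its call, once (limma adjusted p = 0.0584). The 47 leave out Tcf7, Tcf7l2, Wwp2, Cd14 and Cd68, and also the most similar profiles Zswim8, Ankrd13b, Adam8, Gm17484 and Tmem117. Wwp2, which did not pass in the main test, passed after median centring, after quantile normalization and without WT replicate 1. Gm14165, which did not pass, changed sign once, from 0.17 to -0.0005 without Zfx F5 replicate 1. Of 63 repeats for the 5 tested Sox genes, 60 moved by less than 1 SD and none reversed. The exceptions were Sox12 at -0.05 after quantile normalization, with groups that overlapped, and Sox5 at -1.01 and Sox7 at -3.68 with 1 CPM added. The scalings moved the median of all genes by less than 0.1.

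Without a filter, 1 Sox gene, Sox6, was higher with no overlap (0 with it), because more genes were tested. With a mean log2 value of at least 2, 3 were lower (5 before), because Sox5 and Sox7 were not tested. Without a filter, the numbers of genes higher were 2 for colon epithelium (1 with it), 5 for fibroblasts (3) and 5 for SoxF vessel targets (2), and 3 cartilage genes were lower (1). With the stricter filter 0 colon epithelium and 0 myeloid genes were higher. With median centring and with quantile normalization 2 cartilage genes were higher (1 before), and the cause was not tested. Leaving out 1 library gave 1 to 2 cartilage genes higher, 1 to 2 myeloid genes higher and 0 to 1 lower, 3 to 4 fibroblast genes higher and 2 to 3 SoxF vessel targets higher. Depth limits Sox6, Sox13 and Sox18, with 11 reads or fewer per library.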

Other observations

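Some partner and target genes below the filter on low values had many more reads in 1 group. They were chosen after their values were seen and carry no test. Ppargc1a, a coactivator of mitochondrial genes that binds SOX9, had 36, 28 and 31 reads in WT and 1, 0 and 0 in the libraries labelled Zfx F5. The groups did not overlap. Col11a1, a cartilage collagen gene, had 17, 17 and 24 reads in WT and 1, 0 and 3 in the others, and Col11a2 had 35, 18 and 38 and then 8, 10 and 10. Pou3f2, a neural POU factor that pairs with SOX proteins, had 23, 18 and 24 reads in WT and 2, 4 and 7 in the others. All of these were lower, with no overlap, in the libraries labelled Zfx F5. Gja4, an arterial gap junction gene, went the other way, with 0, 1 and 2 reads in WT and 9, 17 and 8 in the others. Map2, a neuronal microtubule protein gene, also had more reads in the libraries labelled Zfx F5, with 8, 6 and 6 after 0, 1 and 1 in WT.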
